A study of Mus musculus with 19 samples.

Results

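Tumours exposed to osimertinib were compared with tumours not exposed, once without and once with a second drug, 6-thio-dG, and the genes that moved the same way in both settings are described. The libraries were grouped by treatment label: all 19 libraries of the series entered, 10 of them exposed and 9 not. RNA was taken from xenografts of HCC827, a human lung adenocarcinoma line (non-small cell) that carries an activating EGFR mutation and relies on it, grown in NCG mice, an immunodeficient strain without T, B or natural killer cells that keeps mouse stroma and myeloid cells. The exposed libraries came from tumours given osimertinib alone (osimertinib, n = 5) and from tumours given osimertinib with 6-thio-dG (labelled Osimertinib+6-thio-dG, called the combination from here on, n = 5). The libraries without osimertinib came from tumours given the vehicle DMSO (control, n = 5) and from tumours given 6-thio-dG (called thio, n = 4). Doses, duration of dosing and the age of the mice are not stated in the labels. Whether the libraries of a group come from different animals is not stated either, so p values measure the spread between these samples, which may in part be technical.

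EGFR is a receptor tyrosine kinase of the ERBB family. Ligand binding or an activating mutation switches it on, and it signals through the RAS, RAF, MEK and ERK kinases and through PI3K and AKT to growth, glucose use and survival. Osimertinib binds the mutated kinase covalently and largely spares the wild-type receptor. ERK activity induces its own brakes, among them the DUSP phosphatases and the Sprouty proteins, so their transcripts are commonly read as a record of pathway output. 6-thio-dG is a modified nucleoside that enters telomeres through telomerase. In squamous epithelia EGFR also governs basal and stress keratins, while lung tissue in addition holds ciliated and alveolar cells with programmes of their own.

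Library totals ran from 17731752 to 35397346 counts, and the mean within-background difference in total between exposed and not exposed libraries did not pass an exact permutation test (2-sided p = 0.653). Human epithelial markers, such as the adhesion protein EPCAM and the keratins KRT8 and KRT18, were detected for 10 of 10 genes, and their summed level averaged 18905 ± 880.4 CPM (counts scaled to library size) in osimertinib, 18903 ± 2672 in control, 18233 ± 3613 in combination and 17012 ± 3640 in thio libraries (SD). Transcripts of the mitochondrial genome took 12.0% ± 3.42 of the counts in osimertinib, 8.15% ± 0.835 in control, 18.6% ± 7.54 in combination and 6.45% ± 1.07 in thio libraries. Averaged over both backgrounds, the exposed libraries held 7.99 percentage points more of them (exact permutation of labels within backgrounds, 31752 arrangements, 2-sided p = 0.000976, adjusted over 3 library measures p = 0.00293). The difference was 3.81 points between osimertinib and control and 12.2 points between combination and thio. The 271 olfactory receptor genes of the table, normally active in the sensory cells of the nose, added up to 14.8 ± 3.57 CPM in osimertinib, 4.99 ± 3.07 in control, 25.2 ± 11.2 in combination and 13.4 ± 6.48 in thio libraries, a mean difference of 10.8 CPM (exact permutation, adjusted p = 0.00562). Combination 3, combination 5 and thio 3 had the highest olfactory receptor sums of their groups. Within single backgrounds the exact permutation p for the olfactory receptor sum, unadjusted, was 0.00794 without 6-thio-dG and 0.127 with it. For the mitochondrial percent it was 0.0159 and 0.0238. The olfactory receptor sum was also higher in thio than in control libraries. Averaged over both backgrounds, the 2 measures moved with osimertinib. Fits that hold either of them as a further term are given below where they change the calls of a gene group most.

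**Figure D1:**
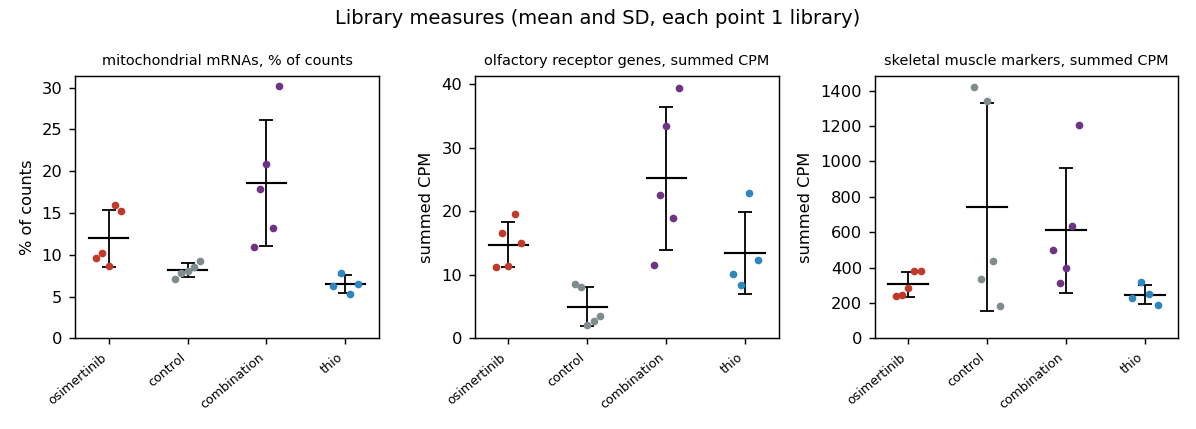
Each point is 1 library, with groups along the horizontal axis and bars at the mean ± SD. The left panel gives the percent of counts in mitochondrial mRNAs, the middle panel the summed CPM of olfactory receptor genes and the right panel the summed CPM of skeletal muscle markers. Exposed libraries reach 30.2% mitochondrial counts (combination 5), while no control or thio library exceeds 9.29%. Osimertinib 3, at 8.62%, lies below control 5, at 9.29%.

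Osimertinib exposure was tested as 1 term in an edgeR quasi-likelihood fit of all 19 libraries, with 6-thio-dG exposure as a second, additive term. A gene was called at a Benjamini-Hochberg adjusted p under 0.05 over 16538 tested genes. The exposed tumours differed in 6409 genes, 38.8% of those tested, with 3347 higher (20.2%) and 3062 lower (18.5%). With upper-quartile scaling the higher genes made up 67.2% of the calls, against 52.2% here, since that scaling moved the median log2 fold change of all tested genes to 0.12. In 6347 of the called genes (99.0%) the change had the same sign in osimertinib against control as in combination against thio, 3328 of them higher (20.1% of tested genes) and 3019 lower (18.3%). The remaining 62 had opposite signs. The additive term pools both backgrounds, so a call in it favours genes with 1 sign, which largely sets this share in advance. Shares from separate fits of each background are given below. The shared direction hides an uneven size: in 84.1% of the 6347 genes the change was larger in combination against thio, and 907 of them passed the test in neither background alone. With the mitochondrial percent as a further term 454 genes were called, and with the olfactory receptor level 2446, so the number of genes called rests on what else the fit holds.

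Tested on its own, osimertinib against control gave 676 calls (4.09% of tested genes, 2.66% higher and 1.43% lower), and combination against thio gave 7309 (44.2%, 21.2% higher and 23% lower). These comparisons share no library, although they share the estimate of spread. In both, 413 genes were called with the same sign (2.5%), 248 of them higher (1.5%) and 165 lower (0.998%). The 413 were 61.1% of the calls without 6-thio-dG and 5.65% of those with it. Only 1 gene was called in opposite directions, SDR16C5, named here after its values were seen, which encodes a retinol dehydrogenase. Its log2 fold change was 1.03 in osimertinib against control and -0.76 in combination against thio. When each background was fitted on its own 2 groups, with neither libraries nor spread in common, 95.1% of the 732 genes called in osimertinib against control had the same sign in combination against thio, and 85.1% of 6436 genes the other way round, beside 73.0% of all tested genes. Across all tested genes the fold changes of these separate fits had a Pearson r of 0.51, a description over genes, which are not independent replicates. The 413 genes had a median absolute log2 fold change of 1.19 without 6-thio-dG and 1.50 with it. In 247 genes (1.49%) every exposed library lay above every unexposed one of its background, in both backgrounds, and in 190 genes (1.15%) below. The number called in both was not steady: leaving out 1 library at a time gave 83 to 342 higher and 58 to 225 lower genes. It fell below 275 in all without osimertinib 1 (243), osimertinib 2 (228), osimertinib 4 (142), osimertinib 5 (247), control 3 (172) or control 4 (204). Through every one of the 19 fits with a library left out, 116 genes kept both calls, 67 higher and 49 lower. A fit with the mitochondrial percent called 52 genes in both backgrounds, and one with the olfactory receptor level 8, and there osimertinib against control gave 10 calls instead of 676. The olfactory receptor sum separated these 2 groups (lowest osimertinib library 11.3 CPM, highest control library 8.59). The mitochondrial percent separated combination from thio (lowest combination library 10.98%, highest thio library 7.86%). Such a term is hard to tell apart from exposure, so losing calls in that background was largely set in advance. Of 53 named genes called in both, 17 kept both calls with the mitochondrial percent in the fit and 5 with the olfactory receptor level, namely KRT6A, KRT14, DSG3, SPRR1B and NIBAN1. On leaving out 1 library at a time 30 of the 53 never lost a call. Another 17 lost one in 1 to 9 of the 19 fits, and 6 lost one in more than 10 (DSC3, NKX2-1, ALDOC, ADA, ITGA5 and MERTK). The named genes were drawn largely for size, separation or small p in these same data, so their steadiness does not stand for the 413.

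**Figure D2:**
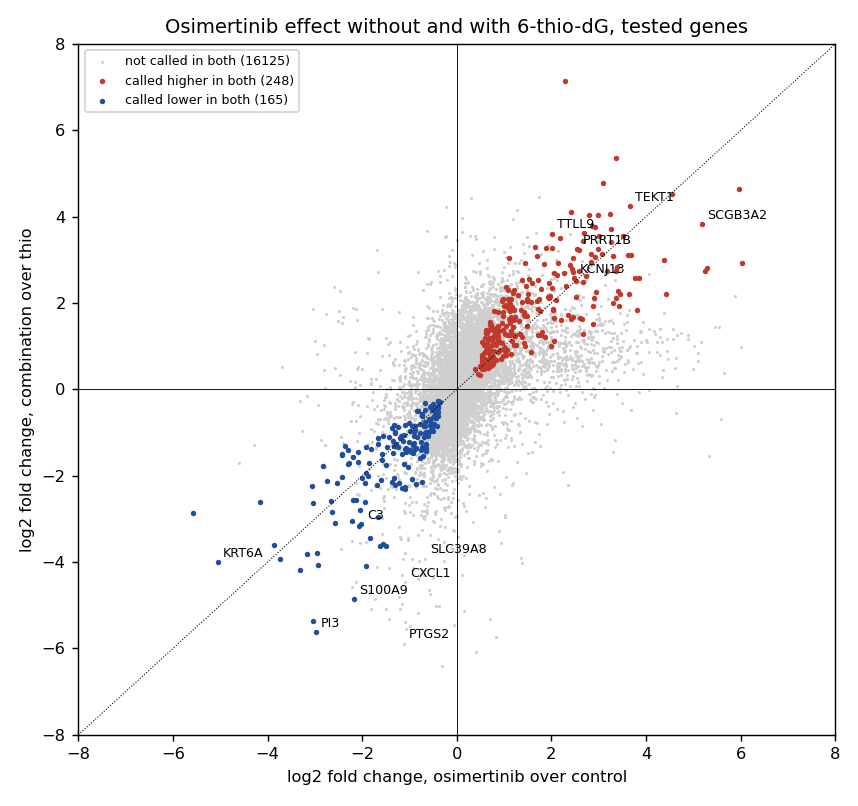
Each point is 1 tested gene, with the log2 fold change of osimertinib over control on the horizontal axis and of combination over thio on the vertical axis. Red and blue points are the 248 genes called higher and the 165 called lower in both comparisons, and grey points are the other tested genes. The coloured points lie at the upper right and lower left, while CXCL1 and PTGS2, at -1.10 and -1.12 on the horizontal axis, lie at -4.46 and -5.89 on the vertical one.

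Among the receptors themselves, EGFR was the most abundant and the only ERBB gene called lower, and ERBB4 was called higher (adjusted p = 0.00875). ERBB4, a receptor for neuregulins, held 2 to 12 counts in osimertinib and 4 to 15 in combination libraries, against 0 to 3 counts in control and 2 to 7 in thio libraries. No ERBB receptor was called with the mitochondrial percent in the fit. EGFR stood at 3956, 4209, 5127, 3132 and 3475 CPM in osimertinib libraries, against 4801, 5232, 3185, 3895 and 3915 CPM in control libraries. It stood at 4609, 3619, 3280, 3394 and 3064 CPM in combination libraries, against 5381, 5171, 8162 and 6054 CPM in thio libraries. The osimertinib and control libraries overlapped, whereas every combination library lay below every thio library. The additive log2 fold change was -0.41 ± 0.15 (SE over 10 exposed and 9 not exposed libraries, as for all additive values below; adjusted p = 0.0314), made of -0.08 against control and -0.79 against thio. This call was lost on leaving out any of osimertinib 4, control 2, combination 2, combination 3, combination 4 or thio 3, and with the mitochondrial percent in the fit the value was -0.06. ERBB2, the partner without a known ligand, averaged 135 ± 13.5 CPM in osimertinib, 147 ± 12.1 in control, 118 ± 14.2 in combination and 115 ± 25.4 in thio libraries (adjusted p = 0.713). ERBB3, which pairs with the other members to recruit PI3K, averaged 235 ± 21.2 CPM in osimertinib, 206 ± 65.0 in control, 254 ± 35.2 in combination and 199 ± 54.3 in thio libraries (adjusted p = 0.136). Of 7 tested ERBB ligands 1 was called higher and 1 lower. The lower one was TGFA, a ligand of EGFR, at -0.40 ± 0.15 (adjusted p = 0.0383), and it lost the call in 10 of the 19 fits with 1 library left out. AREG, another EGFR ligand, did not pass (-0.31 ± 0.14, adjusted p = 0.0814).

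Transcripts that record ERK activity were called lower in part. Among 14 tested ERK feedback inhibitors 4 were called lower and 10 were not called, beside 38.8% of all tested genes called in either direction and 18.5% called lower. Against control 1 of them was lower, beside 1.43% of all tested genes, and in combination against thio 9 were, beside 23%. The additive values had a median log2 fold change of -0.38, beside 0.02 over all tested genes. DUSP7, a phosphatase that inactivates ERK, was the member called in both backgrounds. It stood at 23.9, 22.7, 28.7, 23.6 and 27.6 CPM in osimertinib libraries, against 41.4, 63.5, 45.7, 46.7 and 42.1 CPM in control libraries. Combination libraries held 18.3, 18.5, 13.1, 18.4 and 11.3 CPM, against 40.1, 28.8, 38.9 and 47.6 CPM in thio libraries. No exposed library reached the lowest library of its own background, and the additive log2 fold change was -1.09 ± 0.12 (adjusted p = 1.41e-05). That value was -0.81 with the mitochondrial percent in the fit and -1.12 with the olfactory receptor level, and it was called in both of those fits, in the first as the only feedback inhibitor. DUSP6, the ERK phosphatase most often used as a readout of the pathway, averaged 62.9 ± 14.8 CPM in osimertinib, 70.5 ± 28.3 in control, 47.9 ± 7.58 in combination and 73.9 ± 15.7 in thio libraries and missed the threshold (-0.38 ± 0.16, adjusted p = 0.07). SPRY4, a Sprouty protein, had 0.22 ± 0.12 (adjusted p = 0.156). DUSP5, a nuclear ERK phosphatase, was called lower at -0.94 ± 0.32 (adjusted p = 0.0271), with -0.04 against control and -1.91 against thio, and lost the call without any of combination 2, 3, 4 or 5.

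Of 18 ERK-driven transcription factors and early genes 8 were lower, 1 was higher and 9 were not called in the additive fit. None was called in osimertinib against control, while 11 were lower and 2 higher in combination against thio. Of all tested genes 18.5% were lower and 20.2% higher in the additive fit, and 4.09% were called in osimertinib against control. In combination against thio 23% of them were lower and 21.2% higher. None of the 18 passed with the mitochondrial percent in the fit. JUNB, a subunit of the AP-1 transcription factor, fell (-0.62 ± 0.11, adjusted p = 0.000759), and its groups did not overlap in either background. ETV5, an ETS factor under ERK control, fell to 13.2 ± 3.17 CPM in combination libraries, against 26.7 ± 2.15 in thio libraries. In osimertinib libraries it averaged 21.6 ± 6.32 CPM, against 25.7 ± 3.87 in control libraries, which overlapped (additive -0.61 ± 0.16, adjusted p = 0.00588). The one higher member was FOSL1, an AP-1 subunit that ERK stabilises. FOSL1 stood at 201, 184, 275, 227 and 192 CPM in osimertinib libraries, against 152, 70.6, 134, 72.1 and 276 CPM in control libraries, and at 255, 364, 289, 304 and 271 CPM in combination libraries, against 106, 139, 76.1 and 139 CPM in thio libraries. Control 5 held as much FOSL1 as the highest osimertinib library, while all combination libraries lay above all thio libraries (additive 0.96 ± 0.22, adjusted p = 0.00296). MYC (-0.39 ± 0.14, adjusted p = 0.0311) and the cell cycle starter CCND1 (-0.40 ± 0.13, adjusted p = 0.0222) were called lower, but MYC lost its call without any of osimertinib 4, osimertinib 5, control 3, combination 3, combination 4 or thio 2, and CCND1 without thio 4. In the fit with the mitochondrial percent the adjusted p was 0.113 for JUNB, 0.557 for ETV5, 0.137 for FOSL1, 0.872 for MYC and 0.846 for CCND1. MET, a receptor known to bypass EGFR in this line, was not called (0.16 ± 0.13, adjusted p = 0.323). With the mitochondrial percent in the fit MET was called higher (0.48, adjusted p = 0.0424). Of 17 tested bypass receptor kinases only MERTK, a receptor for dying-cell signals, was called in both backgrounds, higher at 29.1 ± 6.91 CPM in osimertinib against 14.9 ± 4.73 in control libraries and at 42.9 ± 16.5 in combination against 9.98 ± 3.84 in thio libraries (additive 1.49 ± 0.24, adjusted p = 0.000231). Its call against control (adjusted p = 0.0422) was lost in 11 of the 19 fits with 1 library left out.

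**Figure D3:**
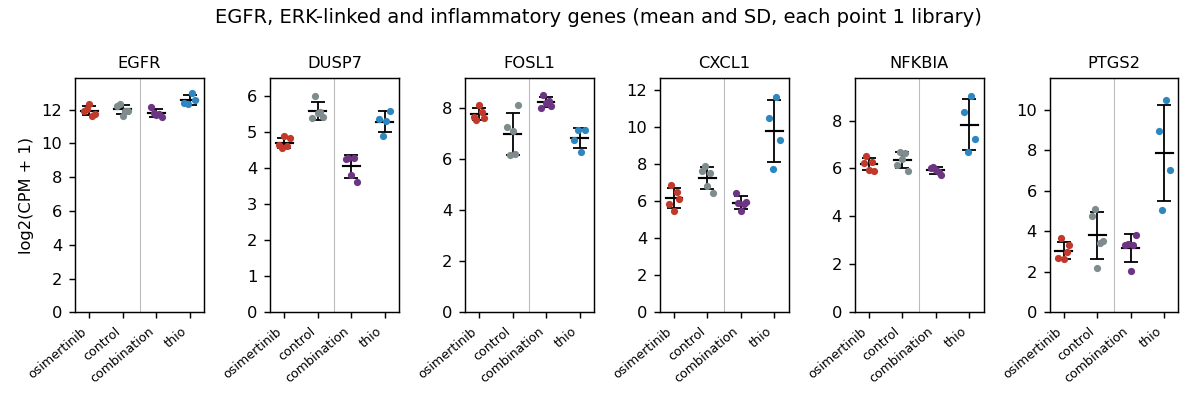
Each point is 1 library on the scale log2(CPM + 1), with groups along the horizontal axis and bars at the mean ± SD. DUSP7 is lower in both exposed groups than in their backgrounds, while CXCL1, NFKBIA and PTGS2 stand high in thio libraries and the other 3 groups lie closer together.

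Several keratins of basal and injured squamous epithelium fell in both backgrounds. Of 10 tested stress and basal keratins 6 were lower and 1 higher in the additive fit, and 5 were lower in both backgrounds, with a list median of -1.61. Over all tested genes 18.5% were lower and 20.2% higher in the additive fit, and 0.998% were lower and 1.5% higher in both backgrounds. The list counts that follow are to be read beside these same shares. KRT6A, a keratin of wounded and hyperproliferative epidermis, stood at 1.74, 4.18, 3.12, 15.0 and 10.6 CPM in osimertinib libraries, against 212, 467, 149, 268 and 40.3 CPM in control libraries. It stood at 7.80, 2.46, 1.52, 2.23 and 6.01 CPM in combination libraries, against 117, 30.8, 31.0 and 75.9 CPM in thio libraries. The highest exposed library thus lay below the lowest unexposed one in each background, and the additive log2 fold change was -4.58 ± 0.50 (adjusted p = 1.37e-05). KRT6A shares long stretches with KRT6B and KRT6C, so the authors' counting could have split reads between them. The paired basal keratins KRT5 (-3.46 ± 0.48, adjusted p = 7.9e-05) and KRT14 (-3.70 ± 0.45, adjusted p = 2.66e-05) fell as well. For KRT14 the libraries held 0.405, 0.729, 0.904, 1.85 and 1.93 CPM under osimertinib, against 10.7, 14.8, 6.11, 22.9 and 2.21 CPM in control, and 0.425, 0.661, 0.599, 1.03 and 0.822 CPM in combination, against 11.4, 4.30, 31.4 and 4.84 CPM in thio. Control 5 lay close to the exposed libraries for KRT14 and again for KRT5, where osimertinib 5 (61.9 CPM) exceeded it (45.7 CPM). KRT17, a keratin induced by inflammation and injury, averaged 169 ± 109 CPM in osimertinib against 903 ± 554 in control libraries and 141 ± 40.2 in combination against 581 ± 386 in thio libraries (additive -2.24 ± 0.33, adjusted p = 0.000141). KRT14, KRT16 and KRT17 also have near-identical copies. Simple keratins of glandular epithelium had no called member among 7 in the additive edgeR fit, with a median of -0.03. The stress and basal keratins had a median of -2.01 with the mitochondrial percent in the fit, with 5 lower and 1 called in both backgrounds, and with the olfactory receptor level -1.70, with 5 lower and 3 in both.

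Desmosomes, the junctions that anchor keratin filaments, were lower in the same comparison. Of 11 tested desmosome genes 9 were lower in the additive fit and 2 did not pass. DSG3, the desmosomal cadherin of basal squamous cells, averaged 0.595 ± 0.569 CPM in osimertinib against 10.3 ± 10.1 in control libraries and 0.249 ± 0.0726 in combination against 1.53 ± 1.02 in thio libraries, with no overlap in either background (additive -3.57 ± 0.51, adjusted p = 9.84e-05). DSC3, its partner cadherin, was the other member called in both (-1.19 ± 0.21, adjusted p = 0.000507), though its call against control (adjusted p = 0.0496) was lost in 13 of the 19 fits with 1 library left out. The general components desmoplakin, DSP (-0.82 ± 0.16, adjusted p = 0.00101), and plakoglobin, JUP (-0.65 ± 0.12, adjusted p = 0.000694), fell in the additive fit, and their groups separated only in combination against thio. With the mitochondrial percent in the fit the desmosome median was -0.31 instead of -0.65, and DSP, JUP and DSC3 did not pass. Genes of the cornified envelope, the outer shell of squamous cells, and its regulators split, with 6 higher, 8 lower and 8 not called among 22 (2 higher and 3 lower with the mitochondrial percent in the fit). SPRR1B, an envelope precursor, fell (-2.32 ± 0.31, adjusted p = 5.37e-05), and so did CLCA2, a surface protein of stratified epithelium (-3.43 ± 0.55, adjusted p = 0.000245). KLK5, a skin protease of the same list, rose to 1.77 ± 0.542 CPM in osimertinib, against 0.406 ± 0.259 in control libraries, and to 2.47 ± 0.897 in combination, against 0.386 ± 0.137 in thio libraries (additive 2.36 ± 0.30, adjusted p = 3.43e-05).

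Of 18 tested protease inhibitors and serpins 14 were lower, 1 was higher and 3 were not called in the additive fit, and 5 were lower in both backgrounds. With the mitochondrial percent in the fit 3 were lower and 1 higher, and with the olfactory receptor level 12 and 1. PI3, also called elafin, an elastase inhibitor of inflamed epithelia, stood at 3.36, 6.13, 2.36, 5.59 and 7.17 CPM in osimertinib libraries, against 34.1, 35.2, 36.8, 38.2 and 49.5 CPM in control libraries. It stood at 5.35, 3.02, 0.679, 4.57 and 3.73 CPM in combination libraries, against 154, 12.0, 404 and 116 CPM in thio libraries. Control libraries were tightly grouped and thio libraries spread widely, and neither overlapped its exposed counterpart (additive -4.23 ± 0.55, adjusted p = 3.92e-05). SLPI, a related antiprotease of airway fluid, averaged 29.9 ± 6.88 CPM in osimertinib against 74.6 ± 21.0 in control libraries and 22.9 ± 5.86 in combination against 95.4 ± 53.7 in thio libraries (-1.67 ± 0.22, adjusted p = 3.92e-05). SERPINB3, a serpin of squamous epithelium with the near-identical copy SERPINB4, stood at 2.43, 4.97, 0.612, 2.74 and 2.37 CPM in osimertinib libraries, against 12.1, 6.58, 19.3, 5.95 and 6.03 CPM in control libraries. In combination libraries it stood at 2.02, 1.94, 0.799, 0.779 and 1.14 CPM, against 23.6, 11.4, 43.8 and 13.0 CPM in thio libraries. Again no exposed library reached an unexposed one of its background, though osimertinib 2 came near (-2.92 ± 0.43, adjusted p = 0.000133). CSTA, which inhibits cathepsins, fell too (-3.81 ± 0.53, adjusted p = 7.9e-05). Of these 4 genes only SERPINB3 missed the threshold with the mitochondrial percent in the fit (adjusted p = 0.054), and the list median was then -0.92 instead of -1.41.

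Several proteases of the matrix fell as well. Of 15 tested matrix proteases and their inhibitors 9 were lower and 6 were not called, and with the mitochondrial percent in the fit 2 were lower and 1 higher. MMP1, the interstitial collagenase, averaged 24.0 ± 22.0 CPM in osimertinib against 185 ± 122 in control libraries and 4.88 ± 2.62 in combination against 67.5 ± 60.0 in thio libraries (-3.33 ± 0.46, adjusted p = 7.22e-05), although osimertinib 5 (61.5 CPM) exceeded control 5 (51.5 CPM). PLAT, the tissue plasminogen activator, had -2.36 ± 0.31 (adjusted p = 3.92e-05), and MMP14, a membrane collagenase, had -0.78 ± 0.15 (adjusted p = 0.000789). Each of these 3 was called in both backgrounds, but MMP14 lost its call against control (adjusted p = 0.0355) in 7 of the 19 fits with 1 library left out. Without combination 3, combination 5 and thio 3 its value against thio was -0.37 instead of -0.80 (adjusted p = 0.227). ITGA5, the fibronectin receptor subunit, was the integrin called in both (-0.94 ± 0.15, adjusted p = 0.000202), but its call against control (adjusted p = 0.0457) was lost in 11 of the 19 fits with 1 library left out.

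Of 14 S100 proteins and 15 complement genes 1 each fell in both backgrounds, S100A9 and C3. S100A9, a danger signal of stressed epithelium and myeloid cells, stood at 15.2, 13.5, 10.9, 22.2 and 20.7 CPM in osimertinib libraries, against 60.8, 78.1, 41.2, 97.7 and 92.7 CPM in control libraries. Combination libraries held 6.27, 8.83, 0.919, 5.17 and 5.25 CPM, against 239, 58.2, 148 and 165 CPM in thio libraries. The groups separated in both backgrounds (additive -3.42 ± 0.44, adjusted p = 4.02e-05), and the fall of 2.17 on the log2 scale without 6-thio-dG differed from that of 4.86 with it (interaction -2.69, adjusted p = 0.0294; such calls are unsteady, as given with the test of the difference below). Its partner S100A8 was called lower in the additive fit (-3.24 ± 0.65, adjusted p = 0.00137) and in combination against thio, not in osimertinib against control. The S100 list as a whole was divided, with 4 higher, 5 lower and 5 not called among 14. C3, the central complement component, stood at 149, 233, 65.8, 104 and 203 CPM in osimertinib libraries, against 499, 751, 472, 783 and 550 CPM in control libraries, and at 315, 121, 104, 139 and 126 CPM in combination libraries, against 1338, 574, 2507 and 1209 CPM in thio libraries. No exposed library overlapped its background (-2.54 ± 0.30, adjusted p = 2.18e-05), and the value was -2.01 with the mitochondrial percent and -2.78 with the olfactory receptor level in the fit. Of the 15 complement genes 8 were lower, 1 higher and 6 not called, and with the mitochondrial percent in the fit 1 was lower and 1 higher. In the S100 list 2 were then lower.

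**Figure D4:**
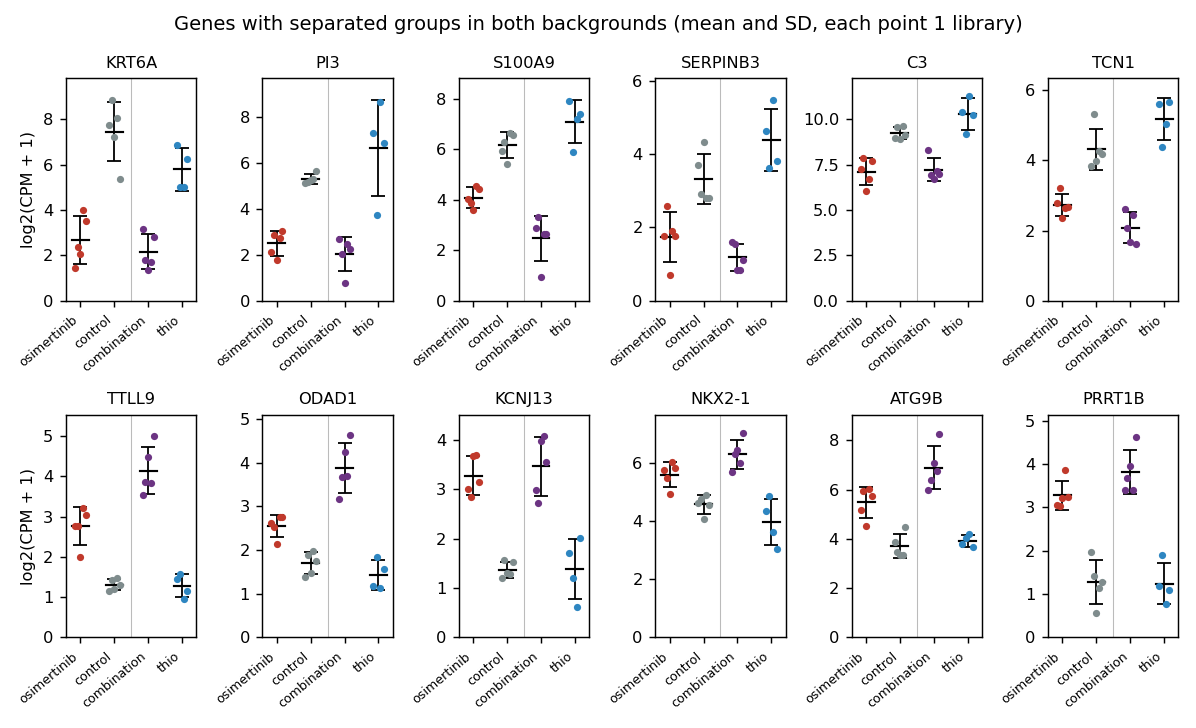
Each point is 1 library on the scale log2(CPM + 1), with groups along the horizontal axis, a thin line between the backgrounds and bars at the mean ± SD. In the upper row the exposed groups lie below their backgrounds without overlap, and in the lower row they lie above.

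Further genes of differing function were lower in both backgrounds without overlap. TCN1, a carrier of vitamin B12, stood at 5.88, 8.26, 4.14, 5.20 and 5.36 CPM in osimertinib libraries, against 13.3, 38.8, 14.9, 18.4 and 17.1 CPM in control libraries. In combination libraries it stood at 5.10, 3.17, 2.16, 4.46 and 2.09 CPM, against 47.9, 20.1, 31.6 and 50.2 CPM in thio libraries. Its additive log2 fold change was -2.58 ± 0.30 (adjusted p = 1.79e-05). NIBAN1, a stress-induced regulator of translation (-2.40 ± 0.31, adjusted p = 3.92e-05), STC1, a secreted glycoprotein of calcium and phosphate handling (-2.54 ± 0.38, adjusted p = 0.000141), and PID1, an adaptor protein (-2.49 ± 0.38, adjusted p = 0.000173), were also called in each background. PLA2G4A, the phospholipase that frees arachidonic acid, fell to 4.00 ± 0.137 CPM in osimertinib, against 8.86 ± 4.72 in control libraries, and to 3.67 ± 0.512 in combination, against 8.45 ± 2.39 in thio libraries (-1.17 ± 0.19, adjusted p = 0.000232). CYP24A1, which breaks down vitamin D, SLC39A8, a zinc importer, and LOX, a collagen cross-linker, also separated in both, but osimertinib against control alone did not pass for them (adjusted p = 0.0585, 0.462 and 0.192). CYP24A1 averaged 3.35 ± 1.42 CPM in osimertinib against 9.13 ± 2.76 in control libraries and 2.88 ± 0.904 in combination against 51.0 ± 49.4 in thio libraries. SLC39A8 averaged 17.8 ± 4.04 CPM in osimertinib against 28.3 ± 4.56 in control libraries and 14.4 ± 3.67 in combination against 218 ± 274 in thio libraries. All 3 of these missed the threshold with the mitochondrial percent in the fit, with values of -1.77 for CYP24A1, -0.97 for SLC39A8 and -1.01 for LOX.

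Genes of motile cilia, the beating organelles of airway epithelium, rose together. Of 20 tested members (24 of 25 are in the table) 17 were higher in the additive fit and 3 did not pass, with a median log2 fold change of 1.03, made of 0.62 without and 1.32 with 6-thio-dG. The called members include FOXJ1, the master regulator of motile ciliogenesis, RFX2, RFX3 and MCIDAS, further regulators, and the dynein arm genes DNAH9 and DNAI1. In both backgrounds 4 were called, which was 9 under DESeq2 and 7 without combination 3, combination 5 and thio 3. The cilium genes described from here on, drawn by the naming rule given below, are not all members of this list. ODAD1, which docks the outer dynein arm, stood at 5.13, 4.80, 3.38, 5.74 and 5.72 CPM in osimertinib libraries, against 1.61, 2.71, 1.80, 2.96 and 2.38 CPM in control libraries. In combination libraries it stood at 7.98, 11.7, 17.8, 11.9 and 23.7 CPM, against 1.26, 2.60, 1.2 and 1.94 CPM in thio libraries. Every exposed library lay above every unexposed one of its background, and combination 3 and 5 were highest (additive 2.00 ± 0.31, adjusted p = 0.000189). TTLL9, an enzyme that adds glutamate chains to tubulin of the axoneme, stood at 5.82, 5.83, 2.97, 8.34 and 7.17 CPM in osimertinib libraries, against 1.21, 1.66, 1.31, 1.78 and 1.47 CPM in control libraries, and at 10.7, 13.4, 21.2, 13.2 and 31.1 CPM in combination libraries, against 1.75, 1.95, 0.933 and 1.22 CPM in thio libraries (2.76 ± 0.30, adjusted p = 1.26e-05). The test of the difference called both higher beside 6-thio-dG (interaction 1.94, adjusted p = 0.0294 for ODAD1; interaction 1.59, adjusted p = 0.0489 for TTLL9), but with the mitochondrial percent or the muscle level in the fit, or without any of 5 single libraries, that test called 0 genes (2142 and 3455 with an unadjusted p under 0.05 in the edgeR fits with those covariates).

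Structural parts of the cilium showed the same direction. RSPH4A, a radial spoke head protein, stood at 3.77, 3.02, 1.84, 2.71 and 3.65 CPM in osimertinib libraries, against 0.179, 1.05, 0.414, 1.09 and 0.904 CPM in control libraries. It stood at 3.97, 5.39, 6.15, 4.71 and 5.82 CPM in combination libraries, against 1.52, 2.06, 1.11 and 1.10 CPM in thio libraries. The groups did not overlap, and the change was of like size in both, 2.02 and 1.84 on the log2 scale (additive 1.93 ± 0.24, adjusted p = 3.43e-05). CFAP43, an axoneme protein, averaged 8.91 ± 0.928 CPM in osimertinib against 4.84 ± 0.964 in control libraries and 15.2 ± 4.03 in combination against 4.36 ± 1.26 in thio libraries (1.31 ± 0.18, adjusted p = 7.02e-05). DNAH7, an inner arm dynein, had 1.62 ± 0.27 (adjusted p = 0.000318) and just missed the threshold against control alone (adjusted p = 0.0529). TEKT1, a filament protein of the axoneme, held 5 to 31 counts in osimertinib and 30 to 42 in combination libraries, against 0 to 4 counts in control and 0 to 4 in thio libraries, so no fold change is given for it. With the mitochondrial percent in the fit the cilium median was 0.47 and 5 members were called. With the olfactory receptor level it was 0.82 and 9 were called.

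Lung lineage genes rose in part. Of 16 tested alveolar differentiation genes 7 were higher, 2 lower and 7 not called, with a median of 0.61, and 3 were higher in both backgrounds. In the fit with the mitochondrial percent 3 were higher and none was called in both. NKX2-1, the transcription factor that specifies lung epithelium, stood at 53.3, 43.6, 29.4, 64.9 and 56.2 CPM in osimertinib libraries, against 23.6, 26.6, 15.8, 28.8 and 22.5 CPM in control libraries. In combination libraries it stood at 51.1, 78.5, 88.1, 64.0 and 130 CPM, against 19.7, 28.0, 11.4 and 7.33 CPM in thio libraries. Osimertinib 3 was barely above control 4, and otherwise the groups lay well apart (additive 1.65 ± 0.26, adjusted p = 0.00025). The call against control (adjusted p = 0.0427) was lost in 13 of the 19 fits with 1 library left out. AQP5, a water channel of alveolar type I cells, averaged 1.98 ± 1.26 CPM in osimertinib against 0.205 ± 0.188 in control libraries and 2.66 ± 0.832 in combination against 0.196 ± 0.195 in thio libraries (3.47 ± 0.43, adjusted p = 3.08e-05). Its lowest osimertinib library fell just short of the highest control library, and without strand its reads cannot be told apart from those of the antisense AQP5-AS1. Its control and thio means lay near the level of 3 counts (0.0848 to 0.169 CPM), so the size of the rise is uncertain. SCGB3A2, a secretoglobin of small airways and a target of NKX2-1, held 5 to 29 counts in osimertinib and 4 to 26 in combination libraries, against 0 to 1 count in control and 0 to 3 in thio libraries.

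KCNJ13, OXTR, FXYD2, PDZK1 and CLDN3 were higher in both backgrounds. KCNJ13, a potassium channel of transporting epithelia, stood at 7.00, 6.15, 11.7, 12.0 and 7.91 CPM in osimertinib libraries, against 1.30, 1.95, 1.45, 1.42 and 1.88 CPM in control libraries. It stood at 6.95, 5.62, 14.7, 15.9 and 10.8 CPM in combination libraries, against 2.26, 1.30, 0.533 and 3.01 CPM in thio libraries. The groups separated by a wide margin and the change was alike in size, 2.48 and 2.57 on the log2 scale (additive 2.53 ± 0.26, adjusted p = 8.86e-06, and still 2.41 with the mitochondrial percent in the fit). OXTR, the oxytocin receptor, averaged 9.35 ± 3.48 CPM in osimertinib against 2.84 ± 1.21 in control libraries and 9.03 ± 1.93 in combination against 2.48 ± 0.666 in thio libraries (1.79 ± 0.21, adjusted p = 2.18e-05). FXYD2, the gamma subunit of the sodium pump, averaged 8.85 ± 2.74 CPM in osimertinib against 2.12 ± 0.845 in control libraries and 11.1 ± 2.22 in combination against 5.12 ± 0.624 in thio libraries (1.60 ± 0.21, adjusted p = 3.92e-05). PDZK1, a scaffold for apical transporters, had 2.01 ± 0.32 (adjusted p = 0.000221), and CLDN3, a tight junction claudin, 0.96 ± 0.17 (adjusted p = 0.000519). In the list of sodium pump and epithelial channel genes 6 of 18 were higher, 3 lower and 9 not called, so the direction was not common to the list, and with the mitochondrial percent in the fit 2 were higher. FXYD2, PDZK1 and CLDN3 were then not called in combination against thio (adjusted p = 0.336, 0.102 and 0.146). On leaving out 1 library at a time PDZK1 lost its call against control in 7 of 19 fits and CLDN3 in 2.

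ATG9B, a lipid scramblase of autophagosome formation, and PRRT1B, a proline-rich membrane protein, gave the other large rises. ATG9B stood at 34.5, 60.7, 22.2, 64.0 and 52.4 CPM in osimertinib libraries, against 13.7, 10.0, 9.15, 9.11 and 21.1 CPM in control libraries, and at 61.5, 82.2, 136, 107 and 305 CPM in combination libraries, against 12.8, 15.3, 17.1 and 11.6 CPM in thio libraries. Combination 5 was far above the rest (additive 2.54 ± 0.33, adjusted p = 3.76e-05). PRRT1B averaged 8.94 ± 2.62 CPM in osimertinib against 1.54 ± 0.900 in control libraries and 13.9 ± 5.95 in combination against 1.45 ± 0.870 in thio libraries, and had the largest additive rise among the named genes that separated in both backgrounds at a mean log2 CPM of at least 2 (2.87 ± 0.30, adjusted p = 8.86e-06). Of 26 lysosome and autophagy genes 10 were lower, 1 higher and 15 not called (2 lower and 1 higher with the mitochondrial percent in the fit). Among 21 drug-metabolising enzymes and pumps 8 were higher, 2 lower and 11 not called, and with the mitochondrial percent in the fit 3 were higher. CYP4B1, a cytochrome P450 of lung, averaged 15.2 ± 9.59 CPM in osimertinib against 2.83 ± 2.41 in control libraries and 16.0 ± 7.19 in combination against 0.913 ± 0.395 in thio libraries (3.14 ± 0.44, adjusted p = 8.62e-05). CYP2S1, an extrahepatic P450, had 0.95 ± 0.13 (adjusted p = 8.13e-05), and the efflux pump ABCC3 had 0.59 ± 0.10 (adjusted p = 0.000302).

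Transcripts of glycolysis fell nearly throughout. Of 21 tested glycolysis genes 20 were lower in the additive fit and 1 did not pass, with a median log2 fold change of -0.87, made of -0.43 without and -1.33 with 6-thio-dG. Called members span the pathway from the glucose transporter SLC2A1 through GAPDH and PKM to LDHA. HK1, which phosphorylates glucose, stood at 88.1, 95.7, 118, 59.7 and 77.5 CPM in osimertinib libraries, against 158, 176, 133, 156 and 125 CPM in control libraries, and at 91.2, 67.1, 42.5, 60.3 and 39.8 CPM in combination libraries, against 156, 161, 223 and 182 CPM in thio libraries. All exposed libraries lay below their backgrounds (-1.15 ± 0.17, adjusted p = 0.000132). ALDOC, an aldolase, was also called in both (-1.06 ± 0.17, adjusted p = 0.000214), though against control the call was lost in 12 of the 19 fits with 1 library left out for ALDOC and in 8 for HK1, while PFKL, a phosphofructokinase, just missed the threshold against control (adjusted p = 0.0569). Of 19 hypoxia response genes 17 were lower and 2 did not pass, with a median of -0.99. EGLN3, an oxygen-sensing hydroxylase, averaged 29.5 ± 6.03 CPM in osimertinib against 63.0 ± 38.0 in control libraries and 36.9 ± 10.7 in combination against 142 ± 44.1 in thio libraries (-1.50 ± 0.25, adjusted p = 0.000291). STC2, a secreted glycoprotein, was the hypoxia gene called in both (-0.82 ± 0.13, adjusted p = 0.000197), and it lost the call against control in 8 of the 19 fits. With the mitochondrial percent in the fit the glycolysis median was -0.39 and 3 members were called, and the hypoxia median was -0.50 and 1 was called.

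Cholesterol synthesis showed the same direction in the additive fit, with 19 of 25 genes lower, 2 higher and 4 not called. LSS, which closes the sterol ring, had -0.86 ± 0.18 (adjusted p = 0.00177) and SREBF2, the transcription factor that drives the pathway, -0.68 ± 0.13 (adjusted p = 0.00107). Neither was called in osimertinib against control (adjusted p = 0.238 and 0.155), and with the mitochondrial percent in the fit neither passed (adjusted p = 0.29 and 0.16), nor did any of the 25. With the olfactory receptor level in the fit 4 of them were lower. The 13 mRNAs of the mitochondrial genome gave 12 higher members with a median of 1.02, and 2 higher members with the olfactory receptor level in the fit. With the mitochondrial percent in the fit 2 were also higher. That percent is the sum of these same 13 mRNAs, so a loss of calls there was set in advance. ATP8, a subunit of ATP synthase, was the member called in both backgrounds, at 1279 ± 284 CPM in osimertinib against 699 ± 200 in control libraries and 1863 ± 709 in combination against 668 ± 31.8 in thio libraries (1.16 ± 0.18, adjusted p = 0.000222). Nuclear genes of the same respiratory complexes did not follow, with 2 higher, 9 lower and 23 not called among 34 and a median of 0.01, and none was called with the mitochondrial percent in the fit. COX6C, a subunit of cytochrome oxidase, was one of the 2 higher (0.50 ± 0.09, adjusted p = 0.000662).

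**Figure D5:**
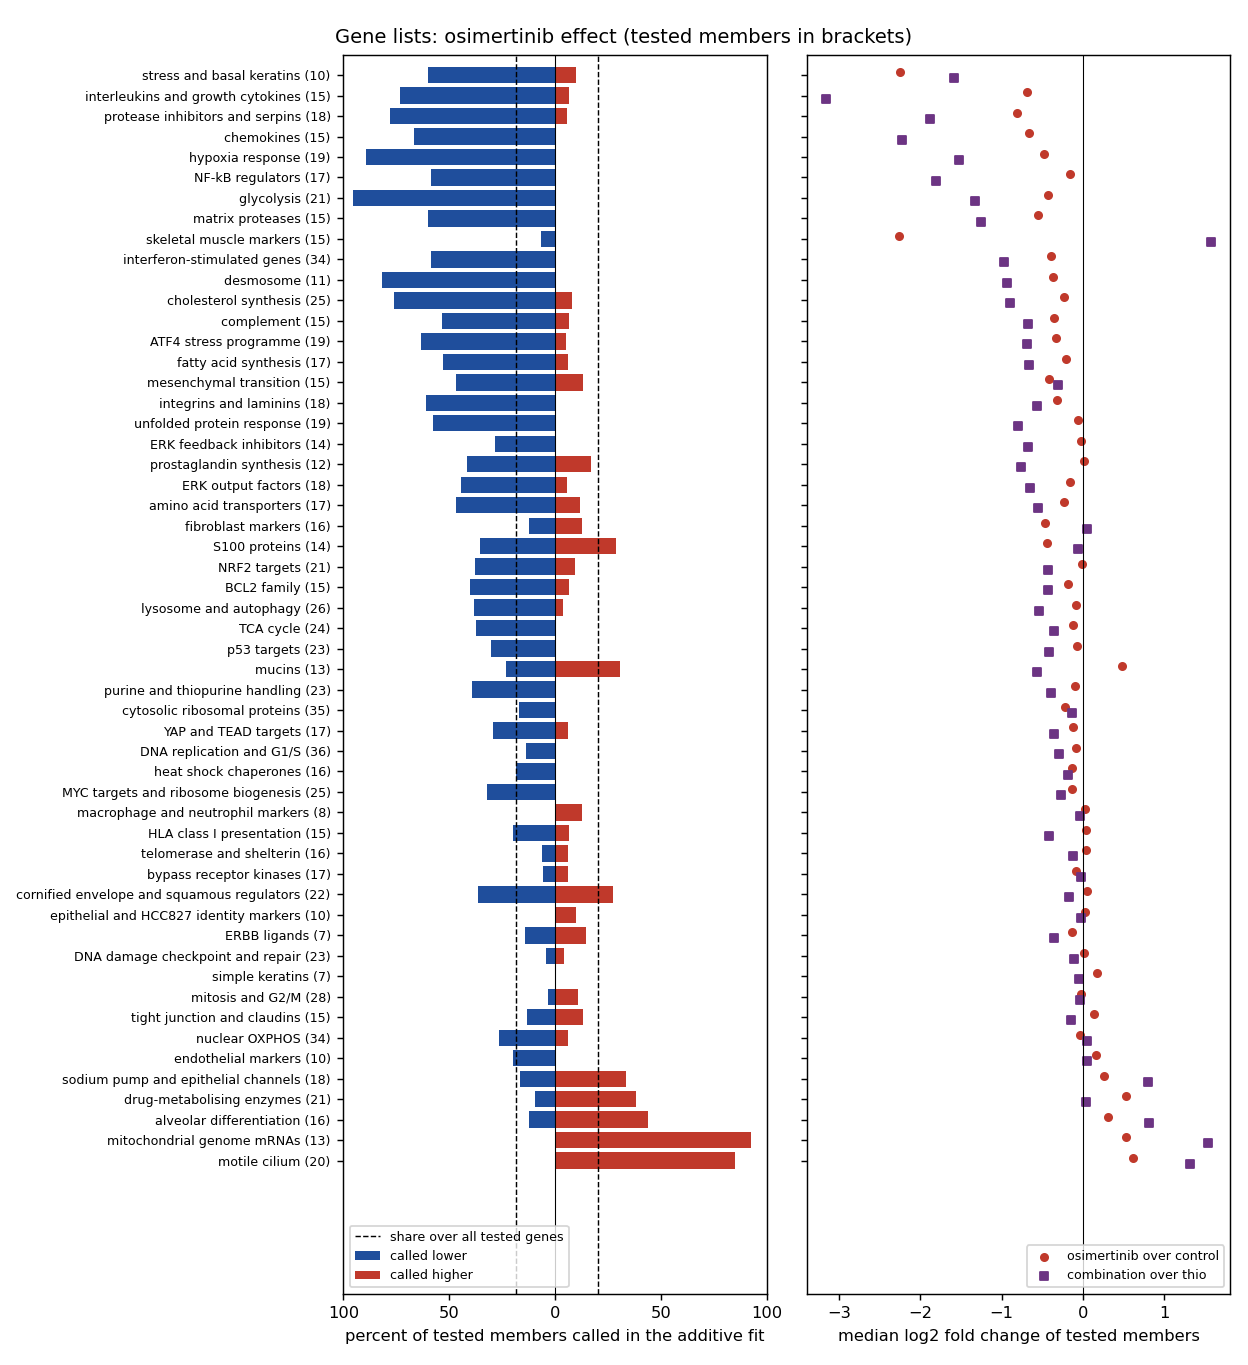
Each row is 1 gene list with its number of tested members. Bars on the left give the percent of members called lower (leftward) and higher (rightward) in the additive fit, with dashed lines at the shares over all tested genes (18.5% lower, 20.2% higher), and points on the right give the median log2 fold change in each background. Glycolysis and hypoxia genes lie at the lower extreme of the bars and motile cilium and mitochondrial genome genes at the higher extreme, and most medians are farther from 0 with 6-thio-dG than without it.

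Inflammatory genes were lower in the additive fit, with larger changes against thio than against control. Of 15 chemokines 10 were lower, of 15 interleukins and growth cytokines 11 were lower and 1 higher, and of 17 NF-kB regulators 10 were lower, beside 18.5% of all tested genes. The median log2 fold change of chemokines was -0.66 in osimertinib against control and -2.23 in combination against thio. That of interleukins and growth cytokines was -0.68 and -3.16, and that of NF-kB regulators -0.15 and -1.81. No member of the 3 lists was called against control alone, near the 1.43% of all tested genes that were lower there. Only 1 chemokine, no interleukin or growth cytokine and no NF-kB regulator was called with the mitochondrial percent in the fit, whereas with the olfactory receptor level 11, 10 and 13 were lower. The differences between backgrounds were called for 7, 6 and 10 of these genes, beside 3.22% of all tested genes. CXCL1, a neutrophil attractant, stood at 56.4, 118, 43.3, 88.9 and 68.3 CPM in osimertinib libraries, against 193, 234, 114, 180 and 84.8 CPM in control libraries. Combination libraries held 84.8, 59.5, 43.4, 56.2 and 60.1 CPM, against 1431, 210, 3103 and 626 CPM in thio libraries. Both exposed groups lay in the same range, and the thio libraries lay above all others except that thio 2 fell between control 1 and control 2 (additive -2.72 ± 0.56, adjusted p = 0.0015; -1.10 against control, adjusted p = 0.178; interaction -3.36, adjusted p = 0.026). NFKBIA, the inhibitor of NF-kB and itself an NF-kB target, averaged 72.2 ± 13.1 CPM in osimertinib against 82.9 ± 19.0 in control libraries and 59.6 ± 5.52 in combination against 275 ± 191 in thio libraries (interaction -2.01, adjusted p = 0.0294). PTGS2, the inducible cyclooxygenase, stood at 5.41, 11.6, 5.19, 6.84 and 8.92 CPM in osimertinib libraries, against 26.2, 33.0, 3.63, 9.84 and 10.3 CPM in control libraries, and at 9.18, 9.40, 3.08, 8.99 and 13.2 CPM in combination libraries, against 490, 31.7, 1420 and 129 CPM in thio libraries. The thio libraries lay above every exposed library and ran over a wide range, with thio 2 just below control 2 (additive -3.46 ± 0.87, adjusted p = 0.00535; interaction -4.77, adjusted p = 0.0294). IL1A, an alarm cytokine (interaction -3.58, adjusted p = 0.0331), CXCL5, another neutrophil attractant (interaction -3.13, adjusted p = 0.0268), TNIP1, a brake on NF-kB (interaction -2.07, adjusted p = 0.0308), and ICAM1, an adhesion molecule (interaction -2.05, adjusted p = 0.0329), gave the same picture.

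Interferon-stimulated genes were lower for 20 of 34 in the additive fit, with 14 not called, a median of -0.65 and a median of -0.39 in osimertinib against control. No member was called in osimertinib against control, while 20 were lower and 1 higher in combination against thio. Over all tested genes 1.43% were lower against control, and 23% were lower and 21.2% higher in combination against thio. IFIT2, an interferon-induced RNA-binding protein, averaged 22.8 ± 4.75 CPM in osimertinib against 48.4 ± 27.9 in control libraries and 18.7 ± 3.73 in combination against 59.7 ± 31.5 in thio libraries (-1.36 ± 0.24, adjusted p = 0.000565). OASL, of the oligoadenylate synthetase family, separated in both backgrounds (-1.49 ± 0.25, adjusted p = 0.000342) and narrowly missed the threshold against control (adjusted p = 0.054). With the mitochondrial percent in the fit the list median was -0.32 and no member was called.

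The test of the difference between backgrounds called 532 genes (3.22%), 194 with a more positive change beside 6-thio-dG and 338 with a more negative one. This number depended on single libraries: it ran from 0 without any of osimertinib 2, control 3, combination 3, combination 5 or thio 1 to 2128 without combination 1, and it was 0 with the mitochondrial percent or the muscle level in the fit. Unadjusted p values under 0.05 numbered 3663 to 3867 in those 5 edgeR fits that gave 0, and DESeq2 called 1752 genes with all libraries. Among the genes with the smallest p were NAMPT, the enzyme of nicotinamide salvage, P3H2, a collagen hydroxylase, PPP2R3A, a phosphatase subunit, STARD4, a cholesterol carrier, and BMP2, a secreted growth factor, all with interaction adjusted p = 0.026. NAMPT averaged 276 ± 67.1 CPM in osimertinib against 285 ± 43.0 in control libraries and 210 ± 53.4 in combination against 1621 ± 1399 in thio libraries. BMP2 averaged 5.92 ± 1.97 CPM in osimertinib against 5.92 ± 3.66 in control libraries and 5.35 ± 1.24 in combination against 41.0 ± 17.8 in thio libraries. In the other direction stood DNASE1, a secreted nuclease, PIF1, a helicase that acts at telomeres, and SIRT5, a mitochondrial desuccinylase. SIRT5 held 18.2, 17.8, 17.5, 18.4 and 19.0 CPM in osimertinib libraries, against 19.7, 22.7, 20.8, 23.8 and 19.2 CPM in control libraries, and 24.8, 20.1, 23.1, 22.8 and 25.9 CPM in combination libraries, against 15.5, 16.5, 14.6 and 17.4 CPM in thio libraries. It was the only tested gene (0.00605%) whose groups separated in opposite directions in the 2 backgrounds (interaction 0.77, adjusted p = 0.026).

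In the additive fit cell cycle genes were called in shares below those of all tested genes, 18.5% lower and 20.2% higher. Of 36 DNA replication genes 5 were lower and 31 not called, and of 28 mitosis genes 3 were higher, 1 lower and 24 not called. In combination against thio 10 of the 36 were lower, beside 23% of all tested genes, and 4 of the 28 were higher and 1 lower. Against control 0 of the 36 were called and 1 of the 28 was lower, beside 1.43% of all tested genes lower. MKI67, a marker of cycling cells, averaged 301 ± 96.7 CPM in osimertinib against 307 ± 74.3 in control libraries and 238 ± 51.6 in combination against 296 ± 65.3 in thio libraries (-0.16 ± 0.15, adjusted p = 0.405). CDKN1A, the p53-induced inhibitor of cyclin-dependent kinases, fell to 14.9 ± 1.96 CPM in osimertinib, against 28.8 ± 8.54 in control libraries, and to 8.62 ± 2.35 in combination, against 36.6 ± 16.4 in thio libraries, without overlap (-1.49 ± 0.22, adjusted p = 0.000144). It was the only one of 23 p53 targets called in both, with 7 lower and 16 not called in the additive fit. The call of CDKN1A against control (adjusted p = 0.0367) was lost in 7 of the 19 fits with 1 library left out. It was also lost with the mitochondrial percent in the fit (adjusted p = 0.115). In the additive term of that fit CDKN1A was still lower (-1.02, adjusted p = 0.0485), as the only p53 target. ADA, adenosine deaminase, was the gene of purine handling called in both (-0.51 ± 0.09, adjusted p = 0.000693). Its call in combination against thio (adjusted p = 0.0464) was lost in 12 of the 19 fits with 1 library left out and with either measure of the libraries in the fit (adjusted p = 0.168 and 0.136). BCL2L11, the pro-apoptotic BIM, was not called (-0.21 ± 0.10, adjusted p = 0.101). With the olfactory receptor level in the fit BCL2L11 was called lower (-0.45, adjusted p = 0.0145).

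The series is named for telomerase and SUCLG2, a subunit of succinate-CoA ligase in the tricarboxylic acid cycle. TERT, the catalytic subunit of telomerase, held 2 to 27 counts in osimertinib and 6 to 14 in combination libraries, against 1 to 11 counts in control and 0 to 3 in thio libraries. It was called higher in the additive fit (adjusted p = 0.00746) but not in osimertinib against control (adjusted p = 0.247), where the libraries overlapped, and no fold change is given since thio libraries held at most 3 counts. The additive call was lost with the mitochondrial percent in the fit (adjusted p = 0.25). Of 16 telomerase and shelterin genes 1 was higher, 1 lower and 14 not called. SUCLG2 stood at 51.1, 48.8, 54.8, 37.1 and 37.2 CPM in osimertinib libraries, against 53.6, 37.6, 37.9, 39.0 and 48.0 CPM in control libraries, and at 45.4, 38.4, 33.7, 35.9 and 19.4 CPM in combination libraries, against 51.6, 53, 56.0 and 45.1 CPM in thio libraries. The libraries overlapped in both backgrounds, and the additive value did not pass (-0.23 ± 0.14, adjusted p = 0.215). In combination against thio alone it was lower (-0.57 ± 0.18, adjusted p = 0.0165).

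In bulk RNA, fewer cells of a type and less RNA per cell cannot be told apart, and markers of other cells were counted beside the results above. Fibroblast markers summed to 1114 ± 252.8 CPM in osimertinib, 1238 ± 481.2 in control, 910.8 ± 267.7 in combination and 672.5 ± 121.9 in thio libraries, with 2 higher, 2 lower and 12 not called among 16. Macrophage and neutrophil markers summed to 14.7 to 38.6 CPM over all libraries, endothelial markers to 17.6 to 45.5 CPM and erythroid markers to at most 1.89 CPM. Among the macrophage and neutrophil markers CSF1R reached 475 and SPI1 461 counts, while CD68, the next highest, reached 74 and TYROBP 6. Host cells are mouse and the counted symbols human, so the sums of these lists need not follow the amount of host cells. Of 12 lymphocyte markers 3 passed the filter on low counts. MS4A1 of B cells and NKG7 of natural killer cells had at most 1 and 2 counts in any library and were at 0 in 15 and 17 of the 19 libraries, and IL7R, with up to 402 counts, made up most of the list, which summed to 5.96 ± 1.23 CPM in osimertinib against 9.84 ± 3.70 in control libraries and 2.69 ± 0.533 in combination against 7.58 ± 1.39 in thio libraries. Skeletal muscle markers summed to 305.5 ± 69.6 CPM in osimertinib against 742.3 ± 589.7 in control libraries and to 611.4 ± 354.0 in combination against 245.7 ± 54.5 in thio libraries, so they ran in opposite directions in the 2 backgrounds. With their level in the fit 6591 genes were called in the additive comparison, and 146 higher and 81 lower genes in both backgrounds. How far these cells take part in any single gene's change was not tested.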

How the data were processed

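The authors deposited 1 table of raw read counts per gene symbol for the 19 libraries, with no normalization, and every column was used (0 were not). FastQC, Trimmomatic, STAR and the human build hg38 are named per the submitters' processing notes. Not given in the sources used here are tool versions, the counter, its annotation and how mouse reads were handled. Per the labels' protocols the libraries were poly-A selected with a kit that does not mark strand, so overlapping and antisense genes cannot be told apart. The labels name the mouse as organism, while the symbols are human.

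Groups follow the treatment labels. The members, the 58 gene lists (1072 genes, 1067 in the table, 978 tested) and the naming rule were chosen with earlier results of these data known. Of 31276 symbols, 16704 passed filterByExpr (count minimum 10, total minimum 15), and 322 symbols in 156 sets of identical counts were joined, which left 16538 genes with at least 99.85% of each library's counts. Counts were scaled by TMM and fitted with edgeR 4.0.16 in R 4.3.3 by the quasi-likelihood test, with osimertinib and 6-thio-dG exposure as additive terms, and again with group means for osimertinib against control, combination against thio and their difference. Adjustment was by Benjamini-Hochberg. CPM of genes use TMM-scaled totals, and those of olfactory receptors and cell type markers use raw totals. A count of 3 equals 0.0848 to 0.169 CPM, and counting intervals cover counting error alone. Library measures were compared by exact permutation within backgrounds in Python 3.11.15. The fits were tested on simulated data.

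Named genes were drawn from 4 sources. The first was the 12 with the largest additive change in each direction at a mean log2 CPM of at least 2 that were called, had 1 sign in both backgrounds and did not overlap in either. The others were up to 4 called members of each list with the smallest p, a fixed set around EGFR, telomerase and SUCLG2, and the 5 smallest interaction p in each direction. A subset is printed.

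Alternatives were DESeq2 1.42.0, voom of limma 3.58.1, RLE and upper-quartile scaling, other filters, robust estimation, covariates (mitochondrial percent, skeletal muscle level), removal of mitochondrial genes, a minimum change of 1.5 times, other designs, and fits without each library or without named libraries. After seeing the data were added the olfactory receptor covariate, the fit of every symbol and the library measures without single libraries. Positions and sequences were not used here.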

Additional observations from a re-analysis of the deposited data

Results flagged for a closer look

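Single libraries stood apart from their group for some genes, judged by the gap to the nearest library relative to the group's range on log2(CPM + 1). Of 424 groups examined 19 did so, while chance gives about 1 in 20. In osimertinib libraries, ADA (18.6 CPM, osimertinib 5), PRRT1B (13.5, osimertinib 4), DUSP5 (15.7, osimertinib 3) and PIF1 (31.6, osimertinib 5) were highest. LOX (1.60 CPM, osimertinib 4), ALDOC (4.24, osimertinib 4), PLA2G4A (3.76, osimertinib 3) and DNAH7 (4.29, osimertinib 3) were lowest. In combination libraries, DSC3 (6.81 CPM), C3 (315) and PPP2R3A (34.7) were highest in combination 1 and AQP5 (4.11) in combination 5. S100A9 (0.919 CPM) and PTGS2 (3.08) were lowest in combination 3. In control libraries DUSP7 (63.5 CPM, control 2) and STC2 (67.2, control 4) were highest and LSS (25.3, control 2) was lowest, and in thio libraries FXYD2 (6.06, thio 4) was highest and ERBB2 (77.1, thio 3) lowest.

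The change under osimertinib differed between the backgrounds for 23 of the 103 genes followed through the alternatives, by the edgeR interaction test (combination against thio minus osimertinib against control, adjusted p under 0.05, log2 scale). It was more negative beside 6-thio-dG for S100A9 (-2.69), CYP24A1 (-2.70), PID1 (-2.13), SLC39A8 (-3.25), LOX (-2.46), DUSP5 (-1.88), CXCL1 (-3.36), CXCL5 (-3.13), IL1A (-3.58), NFKBIA (-2.01), TNIP1 (-2.07), ICAM1 (-2.05), PTGS2 (-4.77), P3H2 (-1.38), NAMPT (-2.90), PPP2R3A (-1.71), STARD4 (-1.81) and BMP2 (-2.94). It was more positive for TTLL9 (1.59), ODAD1 (1.94), DNASE1 (1.25), PIF1 (1.49) and SIRT5 (0.77). Over all tested genes the share called was 3.22%. Part of the 103 genes were named for a small interaction p, so the count of 23 was partly set in advance. On leaving out 1 library at a time this test called 0 to 2128 genes.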

How the results depend on the processing

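RLE scaling, robust estimation, removal of mitochondrial genes, a stricter filter and every symbol kept moved no count by over 1.5 times. Main counts were 6409 additive calls, 3328 higher and 3019 lower with 1 sign, 248 higher and 165 lower in both backgrounds and 532 interactions, and the shares of 1 sign in separate fits were 95.1% (osimertinib against control) and 85.1% (combination against thio). For what differed the cause was not tested. DESeq2 gave 415 higher and 296 lower in both, 1752 interactions and a share of 84.0%. Voom gave 538, 371, 2762 and shares of 92.1% and 78.4%. The mitochondrial percent as covariate gave 454 additive calls, 257 and 197 with 1 sign, 34 and 18 in both, 0 interactions (2142 at unadjusted p under 0.05) and shares of 100% and 89.7%. The olfactory receptor level gave 2446, 911 and 1519, 1 and 7, and shares of 100% and 82.2%. The muscle level gave 146 and 81 in both, 0 interactions (3455 unadjusted) and shares of 96.9% and 87.0%. A minimum change of 1.5 times gave 560, 358 and 202, 40 and 21, 0 interactions (1490 unadjusted) and shares of 100% and 91.8%. Without combination 3, combination 5 and thio 3 together there were 4174 additive calls, 2055 higher with 1 sign, 0 interactions (2270 unadjusted) and a share of 87.7%. Without control 5 and osimertinib 5 together 124 were higher in both, with shares of 92.3% and 80.0%. Upper-quartile scaling gave a share of 86.2% and no filter 92.6%.

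Leaving out 1 library at a time gave 5159 to 7221 additive calls, 2620 to 3686 higher and 2414 to 3470 lower with 1 sign, 83 to 342 higher and 58 to 225 lower in both, 0 to 2128 interactions, and shares of 90.6 to 97.2% and 78.6 to 89.4%. The exposed libraries kept 6.55 to 8.94 more percentage points of mitochondrial counts and 9.01 to 12.5 CPM more olfactory receptor counts, and the difference in totals ran from -1755310 to -125627.

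Of 7304 gene values in the alternatives 6794 kept their direction and side of the threshold, 476 lost a call, 28 gained one and 6 changed sign. The last were ERBB2 (0.0526 with upper-quartile scaling, 0.10 with the olfactory covariate) and, with the mitochondrial covariate, TGFA (0.0266), MKI67 (0.0879), SUCLG2 (0.25) and SIRT5 (-0.0575). No paired analysis was possible because replicate numbers were given in accession order and the title numbers do not recur between groups. Genes at a few counts, such as TERT and TEKT1, are limited by depth.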

Other observations

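Beyond the groups described, genes of the unfolded protein response and of the ATF4 stress programme were lower in part in the additive fit, without a call in osimertinib against control. In that last comparison 1.43% of all tested genes were lower. Of 19 unfolded protein response genes, among them the transcription factor XBP1 and the chaperone HSP90B1, 11 were lower and 8 not called, with a median log2 fold change of -0.06 in osimertinib against control and -0.79 in combination against thio. Of 19 genes of the ATF4 stress programme, among them DDIT3 and CHAC1, 12 were lower and 1 was higher, with medians of -0.33 and -0.68. No gene of either list was called with the mitochondrial percent in the fit. Heat shock chaperones gave 3 lower among 16, near the 18.5% of all tested genes. Fatty acid synthesis genes gave 9 lower and 1 higher among 17, and integrins and laminins 11 lower among 18, and with that percent in the fit 0 and 1 were lower. Ribosomal protein genes gave 6 lower among 35, near the 18.5% of all tested genes.

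Classes of symbols differed in direction. Of 649 tested symbols with LINC or LOC numbers 256 were higher and 14 lower in the additive fit, and of 476 antisense symbols 175 were higher and 6 lower, beside 20.2% higher and 18.5% lower of all tested genes. Zinc finger genes with a ZNF symbol gave 150 higher and 42 lower among 506, and 9 of 18 tested olfactory receptor genes were higher. In both backgrounds 15 of the LINC or LOC symbols and 10 of the antisense symbols were higher, not far from the 1.5% of all tested genes. The mitochondrial share and the olfactory receptor level of the libraries, given above, moved with the same comparison, and their part in these counts was not tested.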
